A study of Homo sapiens with 24 samples.

Results

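The comparison asked which early responses to 8-amino-adenosine (8AA) differed between MV4-11 and KG-1a, 2 human acute myeloid leukemia (AML) cell lines. It used 8 of the 24 RNA-seq libraries of the series, 2 in each of 4 groups: untreated MV4-11 cells, MV4-11 cells given 1 μM 8AA, untreated KG-1a cells, and KG-1a cells given 1 μM 8AA, all at the 8 h time point. The labels give the genotype as WT for both lines, and both grew in the same Iscove's medium with fetal bovine serum. By the labels, the groups of a line differ only by 8AA. The line difference of a gene is its log2 fold change with 8AA in MV4-11 minus its log2 fold change with 8AA in KG-1a, so a positive value means that the gene rose more, or fell less, in MV4-11. It was read on the 11095 genes that passed the count filter in the 8 h untreated and 8AA libraries of both lines, out of 23354 genes in the table and 14055 in the fit. The other 16 libraries of the series, given 8-chloro-adenosine (8CA) or taken at 24 h, entered the same fit.

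8AA is an analog of the ribonucleoside adenosine with an additional amino group on the base. Such analogs enter the cell through nucleoside transporters, are phosphorylated by adenosine kinase to the triphosphate, and are built into growing RNA chains, which they can terminate. Transcripts with short half-lives tend to be the first to move when RNA synthesis is disturbed. MV4-11 carries the KMT2A-AFF1 fusion and an internal tandem duplication of FLT3, a receptor tyrosine kinase that signals through STAT5 and the MAPK cascade. KG-1a is an immature CD34-positive subline of KG-1, with a rearranged FGFR1 kinase. Each line stands for 1 patient's leukemia, so a difference between them is a difference between these 2 cultures.

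The total count lay between 18754237 and 24181318 in the 8 libraries. The labels do not say that the 2 libraries of a group came from separate cultures, so p-values measure only the spread between these libraries, which may be technical. The line labels were checked against marker genes, in CPM (read counts scaled to the TMM-adjusted library size). The 9 genes listed for MV4-11 summed to between 3940 and 4610 CPM in its 8 h libraries and to between 151 and 160 CPM in those of KG-1a, and the 4 listed for KG-1a to between 7.18 and 8.97 CPM and between 521 and 694 CPM. FLT3 (426 to 544 CPM against 0.159 to 0.456 CPM) and MEIS1 (85.2 to 103 CPM against 0 in all 4 KG-1a libraries) marked MV4-11, and CD34 (359 to 506 CPM against 0.0475 to 0.175 CPM) marked KG-1a. HOXA9, HOXA10 and ITGAM, listed for MV4-11, were higher in KG-1a, and CD14 was under 1 CPM in both lines. RNA was taken from bulk cultures, so fewer cells expressing a gene and less RNA per cell cannot be told apart.

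Across the genes expressed in both lines, 1530 of 11095 (13.8%) had a line difference with an adjusted p below 0.05 in edgeR's quasi-likelihood test. Of all 14055 genes fitted, 1559 (11.1%) did. The difference was positive for 1028 genes (9.27%) and negative for 502 (4.52%), and its median over all genes was 0.03 on the log2 scale. Most differences were modest, with a median absolute value of 0.42 among the called genes. A difference of at least 1 was reached by 119 genes in the positive and 16 in the negative direction, and under each other scaling, filter or set of libraries in edgeR 85 to 116 genes stood against 11 to 28. The share of positive among all called genes depended on the scaling and on the libraries that set it. It was 67.2% here, 58.2% with DESeq2's size factors, 55.4% with library size only, 49.8% when every library had to hold at least 10 counts, 46.4% in a fit of the 12 libraries of 8 h, and 41.8% without a filter. The median over all genes moved by less than 0.1 under each of these, but its sign was not stable. It was 0.007 with DESeq2's size factors and -0.001 with library size only. With at least 10 counts in every library it was -0.016, in the 12 libraries of 8 h -0.023, and without a filter -0.039. Without the second KG-1a library given 8AA, 955 genes were called.

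Both lines responded to 8AA by 8 h. In MV4-11, 1843 genes rose (16.6%) and 1557 fell (14.0%), and in KG-1a 1782 rose (16.1%) and 2276 fell (20.5%). These balances were not stable. In KG-1a the order turned to 2456 rises and 1818 falls with library size only, 2062 and 2032 with upper-quartile scaling, 2627 and 2045 without a filter, 2251 and 1950 where each library had to reach 10 counts and 2282 and 1948 in the 12 libraries of 8 h. It turned in MV4-11 to 1806 rises and 2114 falls without a filter, 1676 and 1758 with the same count minimum, 1598 and 1836 in the 12 libraries of 8 h, and 1152 and 1239 without the second MV4-11 library given 8AA. The 2 responses had a Pearson correlation of 0.431 across 11095 genes of the same libraries, which are not independent replicates. A same-direction call in both lines was made for 1684 genes, 711 up and 973 down, and 87.4% of these had no called line difference. Opposite calls were made for 186 genes, of which 136 rose in MV4-11 and fell in KG-1a and 50 did the reverse. This order turned to 66 against 98 genes without a filter and to 80 against 89 in the 12 libraries of 8 h, and held under the other scalings. Leaving out 1 library also lowered these counts, the first to 76 without the second KG-1a library given 8AA, 77 without the first untreated MV4-11 library and 79 without the second MV4-11 library given 8AA, and the second to 20 without either KG-1a library given 8AA or the second untreated one, and to between 21 and 29 without the first MV4-11 library given 8AA or either untreated MV4-11 library. Among the 1028 positive differences, 422 genes fell in KG-1a with no call in MV4-11, 299 rose in MV4-11 with no call in KG-1a, and 113 fell in both but further in KG-1a. Among the 502 negative ones, 250 genes rose in KG-1a with no call in MV4-11, 119 fell in MV4-11 with no call in KG-1a, and 38 rose in both but further in KG-1a. The 422 became 244 without the second KG-1a library given 8AA, 279 without the first and 275 without the first untreated KG-1a library, and the 299 became 184 without the second MV4-11 library given 8AA and 189 without the first untreated one. The 250 became 144 without the second KG-1a library given 8AA and 146 without the second untreated one, and the 119 became 78 without the first untreated MV4-11 library. Without a filter the 250 and 119 became 493 and 274.

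**Figure D1:**
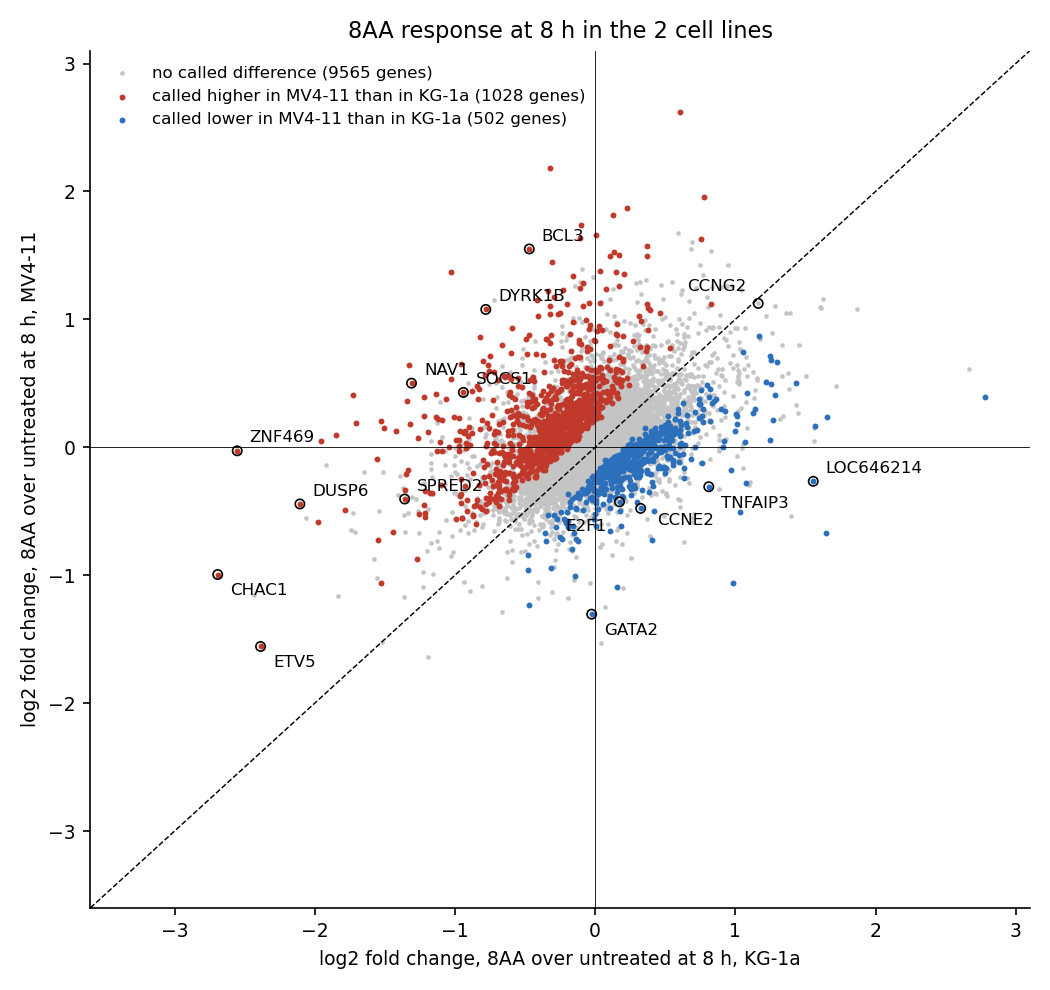
Log2 fold change with 8AA at 8 h in KG-1a (horizontal axis) and in MV4-11 (vertical axis) for the genes expressed in both lines, 1 point per gene and 1 gene outside the axes. Red points are the 1028 genes with a called positive line difference and blue points the 502 with a negative one. The dashed line marks equal responses, and ZNF469 (-2.55 in KG-1a and -0.03 in MV4-11) lies far from it.

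Some of the largest responses were shared by the lines. The genes named next were chosen for the same call in both lines and a 95% interval of the difference within 0.5 of 0. Their intervals are thus no separate support for a shared response. CCNG2, an atypical cyclin linked to growth arrest, stood at 17.7 and 13.9 CPM in untreated MV4-11 and 36.3 and 32.7 CPM with 8AA, and at 24.2 and 23.2 CPM and 52.5 and 53.5 CPM in KG-1a. It rose by 1.13 ± 0.11 (± standard error) on the log2 scale in MV4-11 and by 1.16 ± 0.098 in KG-1a, and the 95% interval of the difference ran from -0.34 to 0.27. METTL7A rose by 1.23 ± 0.079 and 1.04 ± 0.076, with an interval of the difference from -0.04 to 0.42. TXNIP, which restrains glucose uptake, went from 173 and 163 to 299 and 315 CPM in MV4-11 and from 54.6 and 56.3 to 127 and 122 CPM in KG-1a. It rose in both lines but further in KG-1a, by a small called difference of -0.30 ± 0.071 (adjusted p = 0.00807), which lost its call without the first untreated MV4-11 library (adjusted p = 0.0506). Among the largest shared falls were CCDC86, a nucleolar protein (-0.65 in MV4-11 and -0.87 in KG-1a), PUS7, a pseudouridine synthase (-0.63 and -0.81), and the antisense transcript VPS9D1-AS1 (-0.82 and -1.02).

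MAT2A, which makes S-adenosylmethionine from methionine and is a central gene of the study, was part of this shared response at 8 h. In MV4-11, MAT2A stood at 708 and 718 CPM in the untreated and 542 and 553 CPM in the 8AA libraries, and in KG-1a at 530 and 537 CPM and 406 and 390 CPM. All 8AA libraries lay below all untreated libraries of their line. It fell by 0.38 on the log2 scale in MV4-11 (adjusted p = 2.41e-07) and by 0.42 in KG-1a (adjusted p = 2.1e-08). The line difference was 0.04 ± 0.056, with an interval from -0.07 to 0.16 and an adjusted p of 0.748. METTL16, the methyltransferase that acts on MAT2A RNA, fell by 0.26 in MV4-11 (adjusted p = 0.00085), from 94.4 and 97.1 to 78.3 and 81.4 CPM. In KG-1a it stood at 85.6 and 84.2 CPM untreated and 84.6 and 81.5 CPM with 8AA, 2 overlapping groups. Its line difference of -0.23 ± 0.077 missed the threshold (adjusted p = 0.0567) and passed it under 9 of 19 alternatives.

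Among the called genes above 1 log2 CPM in both lines whose replicate responses did not overlap, the largest positive difference was that of ZNF469 (chr16:88493879-88507165, hg19 positions as in the table throughout), a zinc finger gene linked to connective tissue. In MV4-11, ZNF469 stood at 36.1 and 39.0 CPM in the untreated and 36.5 and 37.3 CPM in the 8AA libraries, and in KG-1a at 12.1 and 14.5 CPM and 2.94 and 1.62 CPM. The MV4-11 groups overlapped, whereas the KG-1a groups lay far apart, and the difference was 2.53 ± 0.18 (adjusted p = 3.18e-09). RGS19, which switches off G protein signals, showed the same form. In MV4-11, RGS19 stood at 67.7 and 70.5 CPM in the untreated and 63.7 and 65.9 CPM in the 8AA libraries, and in KG-1a at 7.97 and 7.16 CPM and 2.37 and 2.73 CPM. Its difference was 1.47 ± 0.14 (adjusted p = 5.61e-07). NAV1, a microtubule-linked protein, fell by 1.31 in KG-1a and had 0.50 in MV4-11, which was not called, with a difference of 1.81 ± 0.25 (adjusted p = 4.68e-05).

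Other large differences came from rises in MV4-11. BCL3 (chr19:45251978-45263301), a partner of the NF-kappaB subunits p50 and p52, was scarce in MV4-11 and abundant in KG-1a before treatment. In MV4-11, BCL3 stood at 1.19 and 1.14 CPM in the untreated and 3.43 and 3.40 CPM in the 8AA libraries, and in KG-1a at 22.0 and 18.5 CPM and 15.0 and 14.2 CPM. It rose in MV4-11 and fell in KG-1a, with a difference of 2.02 ± 0.24 (adjusted p = 5.39e-06), although KG-1a still held more of it. SEL1L3 went from 5.88 and 5.89 to 14.4 and 15.3 CPM in MV4-11 and from 155 and 155 to 139 and 138 CPM in KG-1a, a difference of 1.496 ± 0.10 (adjusted p = 3.18e-09). DYRK1B (chr19:40315990-40324841), a kinase that holds cells in quiescence, moved in opposite directions. In MV4-11, DYRK1B stood at 12.2 and 11.9 CPM in the untreated and 25.3 and 25.6 CPM in the 8AA libraries, and in KG-1a at 6.32 and 5.00 CPM and 2.81 and 3.73 CPM. The 4 groups did not overlap. DYRK1B rose by 1.08 ± 0.098 in MV4-11 and fell by 0.78 ± 0.15 in KG-1a. PAQR8, a membrane progesterone receptor, also rose in MV4-11 (0.93 ± 0.072) and fell in KG-1a (-0.59 ± 0.073), with 25.6 CPM in both MV4-11 libraries given 8AA and 13.2 and 13.5 CPM in the untreated ones. SLC27A3, an acyl-CoA synthetase of the fatty acid transport family, and the long non-coding RNA LINC00467 were also called up in MV4-11 and down in KG-1a, with differences of 1.46 ± 0.26 and 1.35 ± 0.25.

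**Figure D2:**
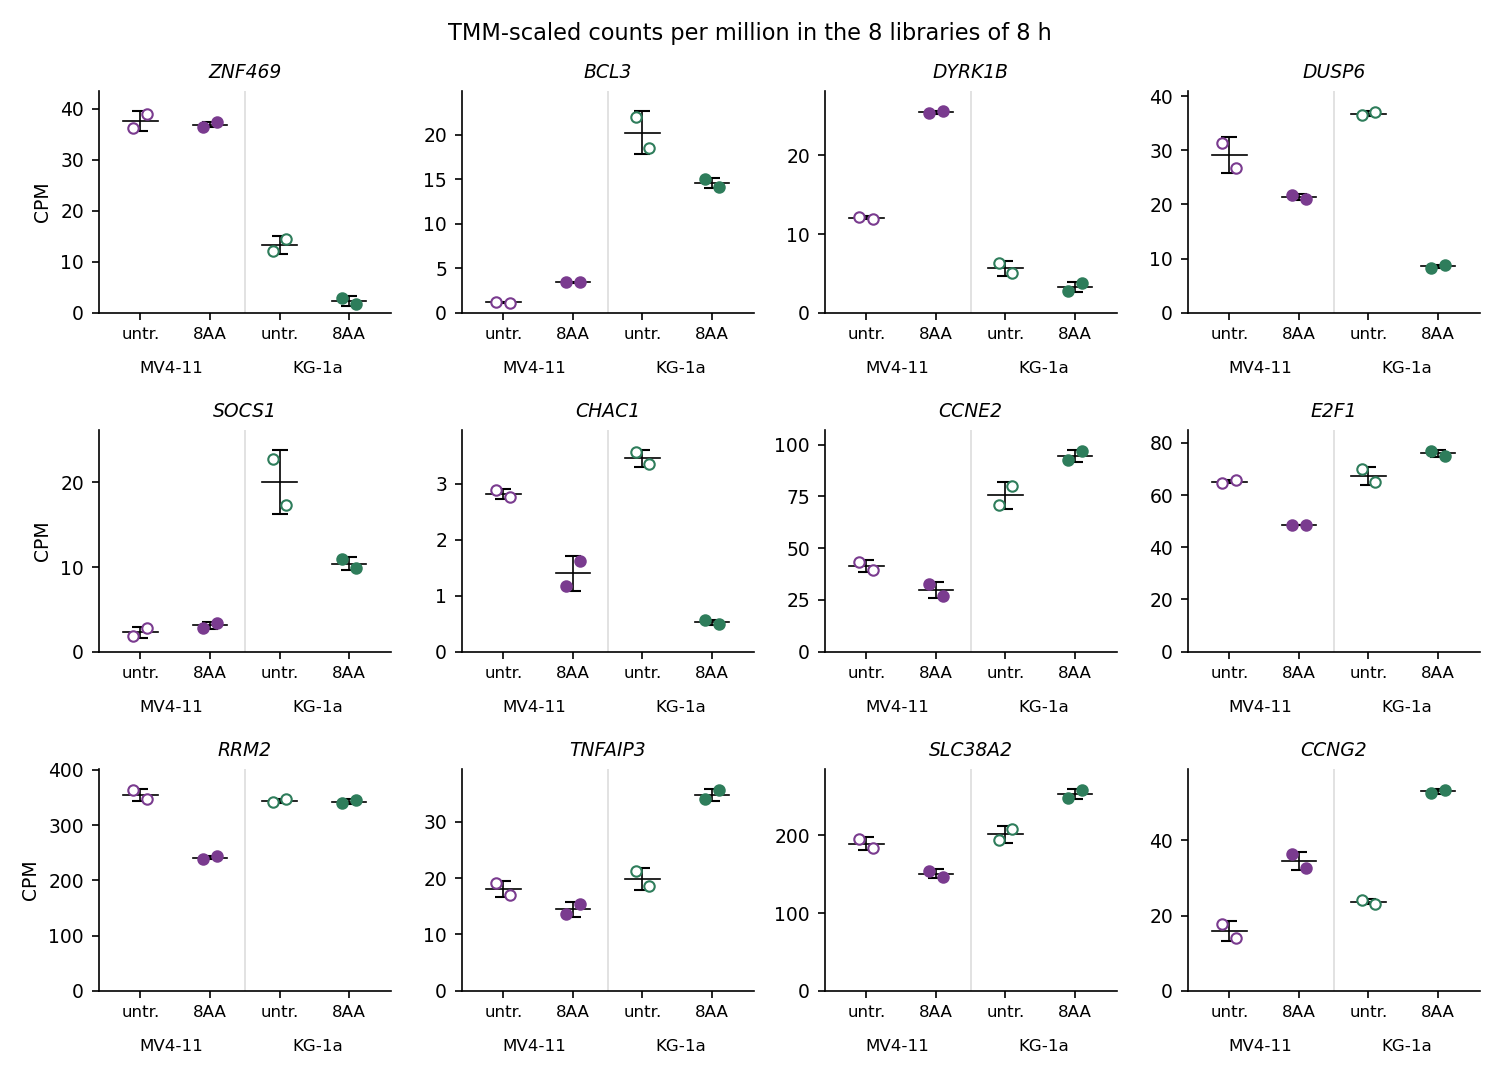
TMM-scaled CPM of 12 genes in the 8 libraries of 8 h, with open circles for untreated and filled circles for 8AA libraries, MV4-11 in purple and KG-1a in green. Horizontal lines are group means and bars the SD of 2 libraries. DYRK1B and BCL3 rose in MV4-11 and fell in KG-1a, CCNE2 and SLC38A2 did the reverse, and CCNG2 rose in both.

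Feedback genes of the MAPK and STAT pathways had called differences in 1 direction. The list held FLT3 and its STAT5 and MAPK targets, of which 18 members were expressed in both lines. In 8 of them the line difference was called, each time in the positive direction, against 9.27% of all genes, and the median difference was 0.27 against 0.03 over all genes. In KG-1a 11 of the 18 fell and 0 rose, against 20.5% and 16.1% of all genes. In MV4-11 6 fell and 4 rose, against 14.0% and 16.6%. Without the second untreated or second 8AA library of MV4-11, 2 rises were called there. The positive count was 5 to 8 and the negative count 0 under every alternative run on it, left-out libraries included, with 5 without the first untreated KG-1a library. DUSP6 (chr12:89741837-89746296), the phosphatase that inactivates ERK and is itself induced by ERK, led the group. In MV4-11, DUSP6 stood at 31.4 and 26.8 CPM in the untreated and 21.8 and 21.0 CPM in the 8AA libraries, and in KG-1a at 36.4 and 37.1 CPM and 8.29 and 8.78 CPM. The groups did not overlap in either line, and the response was -0.44 in MV4-11 and -2.11 in KG-1a, a difference of 1.66 ± 0.14 (adjusted p = 4.41e-08). SPRED2, an inhibitor of RAS to ERK signalling, fell from 43.7 and 41.3 to 30.9 and 33.2 CPM in MV4-11 and from 50.1 and 42.7 to 17.6 and 18.5 CPM in KG-1a, a difference of 0.95 ± 0.10 (adjusted p = 2.53e-06). ETV5, an ETS factor downstream of ERK, fell in both lines (-1.56 and -2.39), and its difference was 0.83 ± 0.18 (adjusted p = 0.00452).

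On the cytokine side, SOCS1, an inhibitor of JAK kinases, was at 1.86 and 2.76 CPM in untreated and 2.82 and 3.40 CPM in treated MV4-11, and at 22.7 and 17.3 CPM and 11.0 and 9.86 CPM in KG-1a. It fell in KG-1a (-0.94 ± 0.12), the value of 0.43 in MV4-11 was not called, and the difference was 1.37 ± 0.25 (adjusted p = 0.000906). PIM1, a kinase induced by STAT5, rose from 71.1 and 67.7 to 83.7 and 88.0 CPM in MV4-11 and fell from 212 and 217 to 171 and 161 CPM in KG-1a, with a difference of 0.68 ± 0.068 (adjusted p = 7.69e-07). CISH (0.35 ± 0.090), CCND3 (0.37 ± 0.090) and STAT5A (0.25 ± 0.082) had smaller called differences. SPRY2, PHLDA1 and PIM2 had negative differences, none of them called. FLT3 itself was not expressed in KG-1a and has no line difference.

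**Figure D3:**
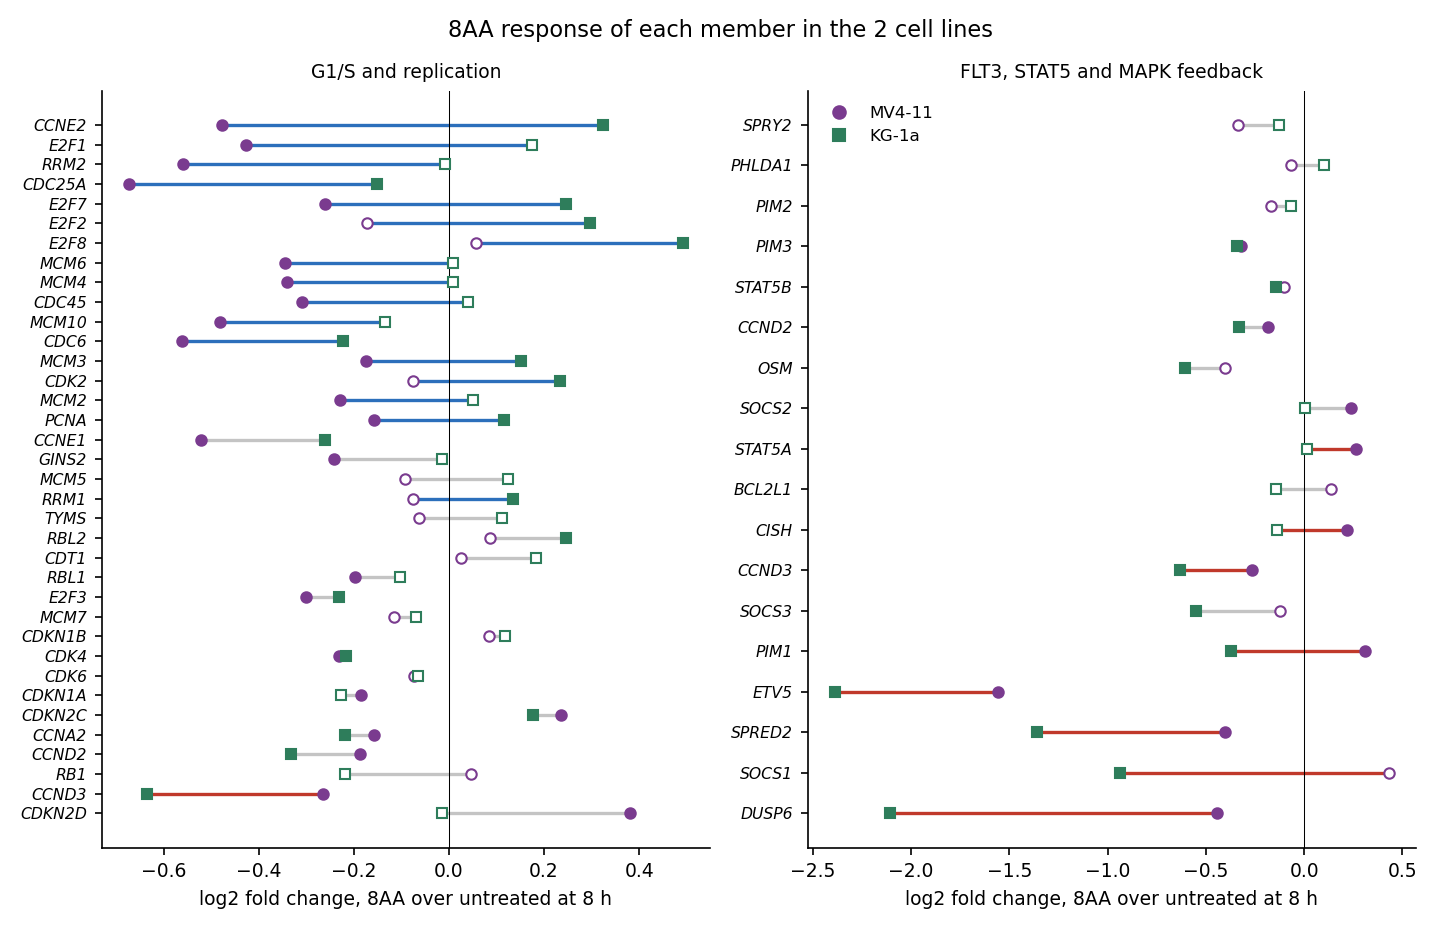
Log2 fold change with 8AA at 8 h in MV4-11 (purple circles) and KG-1a (green squares) for each member of 2 gene groups, filled where the response of that line was called. Connecting lines are blue for a called negative, red for a called positive and grey for no called line difference. In the left panel 17 genes have blue lines and CCND3 a red one, and in the right panel 8 have red ones, with DUSP6 the longest.

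By the same rule, the most negative difference was that of LOC646214 (chr15:21932514-21940739), a pseudogene of the kinase PAK2, at 3.35 and 4.61 CPM in untreated and 3.89 and 2.84 CPM in treated MV4-11, and at 9.57 and 9.71 CPM and 26.7 and 30.0 CPM in KG-1a. Its difference was -1.82 ± 0.30 (adjusted p = 0.000319), but reads of a pseudogene can be split with its parent gene. The antisense transcripts ZNF790-AS1 (-1.40 ± 0.30) and MORF4L2-AS1 (-0.93 ± 0.29) share the limit that strand use of the counting is not stated. MORF4L2-AS1 lost its call under 8 of 19 alternatives, among them leaving out any library but the second untreated MV4-11 and the first untreated KG-1a one, with differences there between -0.68 and -0.96. TNFAIP3 (chr6:138188325-138204451), the deubiquitinase A20 that ends NF-kappaB signals, gave a clear crossing. In MV4-11, TNFAIP3 stood at 19.1 and 17.0 CPM in the untreated and 13.6 and 15.4 CPM in the 8AA libraries, and in KG-1a at 21.3 and 18.5 CPM and 34.1 and 35.6 CPM. It fell by 0.31 in MV4-11 (adjusted p = 0.0125) and rose by 0.81 in KG-1a (adjusted p = 3.78e-08), a difference of -1.12 ± 0.12 (adjusted p = 1.76e-06).

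RHOH, a GTPase of blood cells, also crossed. It went from 3.20 and 3.04 to 1.74 and 2.01 CPM in MV4-11 and from 39.9 and 41.0 to 54.5 and 52.7 CPM in KG-1a, a difference of -1.13 ± 0.17 (adjusted p = 9.38e-05). XRCC2, a DNA repair gene, fell from 41.1 and 44.8 to 28.98 and 31.8 CPM in MV4-11 and rose from 28.2 and 29.8 to 39.2 and 38.5 CPM in KG-1a, a difference of -0.92 ± 0.12 (adjusted p = 3e-05). SLC38A2, a neutral amino acid transporter, fell by 0.33 in MV4-11 and rose by 0.33 in KG-1a. Other genes rose in KG-1a with no call in MV4-11, namely SPATA33 (0.97 against -0.18), RNPC3, a protein of the minor spliceosome (1.27 against 0.22), and TRIB1, a pseudokinase that directs C/EBP alpha to breakdown (1.07 against 0.04). TRIB1 lost its call without the first untreated KG-1a library (difference -0.82, adjusted p = 0.0724). Of the 21 genes named here for the size or the crossing of their responses, 19 stayed called under all 19 alternatives, the exceptions being TRIB1 and MORF4L2-AS1. The genes were chosen as called, large and without replicate overlap in these same libraries, so their staying called is no separate support.

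Genes of the G1/S transition and of DNA replication differed the other way from the MAPK group. Of 36 listed genes expressed in both lines, 17 had a called negative and 1 a called positive difference, against 4.52% and 9.27% of all genes, and the median was -0.22. In MV4-11 22 of them fell and 2 rose, against 14.0% and 16.6% of all genes. In KG-1a 8 fell and 10 rose, against 20.5% and 16.1%, so the falls there stood near the share of all genes. The 10 became 4 without the first KG-1a library given 8AA and 6 without either untreated one, and the 8 became 4 without the second KG-1a library given 8AA. Across the alternatives, including left-out libraries, 12 to 22 were called negative, with medians from -0.30 to -0.18. CCNE2, the cyclin E2 that activates CDK2, had the largest difference. In MV4-11, CCNE2 stood at 43.6 and 39.5 CPM in the untreated and 32.7 and 27.1 CPM in the 8AA libraries, and in KG-1a at 70.9 and 80.0 CPM and 92.5 and 96.7 CPM. It fell in MV4-11 (-0.48 ± 0.089) and rose in KG-1a (0.32 ± 0.076). The difference was -0.80 ± 0.12 (adjusted p = 7.62e-05). E2F1 (chr20:32263292-32274210), the transcription factor that drives S-phase genes, was at 64.7 and 65.7 CPM untreated and 48.4 and 48.6 CPM with 8AA in MV4-11, and at 69.8 and 64.9 CPM and 76.9 and 74.9 CPM in KG-1a. Its difference was -0.60 ± 0.10 (adjusted p = 0.000324), and the KG-1a response of 0.17 was not called. RRM2, the regulated subunit of ribonucleotide reductase, fell from 363 and 348 to 239 and 243 CPM in MV4-11 and stood at 342 and 347 and 339 and 346 CPM in KG-1a, where the groups overlapped.

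The phosphatase CDC25A, which activates CDK2, fell in both lines but further in MV4-11, with -0.67 against -0.15. E2F2, a second activator, rose in KG-1a (0.30) and had -0.17 in MV4-11, which was not called. E2F8, a repressor of E2F targets, rose in KG-1a (0.49) with 0.06 in MV4-11, and E2F7, the related repressor, fell in MV4-11 (-0.26) and rose in KG-1a (0.25). Some subunits and loaders of the replicative helicase had called negative differences, whereas MCM5, MCM7, GINS2 and CDT1 had no called difference. The differences were -0.35 for MCM6, -0.35 for MCM4, -0.35 for CDC45, -0.35 for MCM10, -0.34 for CDC6, -0.33 for MCM3 and -0.28 for MCM2. CCND3, cyclin D3, was the called exception, with a fall of 0.27 in MV4-11 and 0.63 in KG-1a.

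E2F factors bind short GC-rich words that begin with TTT. The 4 words TTTCCCGC, TTTGGCGC, TTTCGCGC and TTTGCCGC were searched on both strands in the 250 bases before the transcription start in RefSeq (GRCh38.p14), since many members had a called difference of the same sign. Words on the 2 strands can overlap. A word was found for 6 of 13 genes with a called negative difference that have a promoter in the RefSeq table (46.2%), for 6 of 17 other listed genes (35.3%), for 5.96% of the 8512 genes expressed in both lines with an entry, and for 3.40% of all 27305 symbols. The 60 bases that end at the base before the start are shown for the called genes with a word there, 5′ to 3′ on the strand of the gene, all of which lie on the minus strand, with the words in capitals. They span chr20:33686386-33686445 for E2F1, chr1:23531234-23531293 for E2F2, chr3:48188418-48188477 for CDC25A and chr20:5126623-5126682 for PCNA, the sliding clamp of replication.
E2F1: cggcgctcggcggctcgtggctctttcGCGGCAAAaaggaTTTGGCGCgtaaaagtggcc
E2F2: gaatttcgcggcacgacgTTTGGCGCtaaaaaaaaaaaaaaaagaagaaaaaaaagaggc
CDC25A: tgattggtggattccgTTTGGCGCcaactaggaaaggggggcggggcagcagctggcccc
PCNA: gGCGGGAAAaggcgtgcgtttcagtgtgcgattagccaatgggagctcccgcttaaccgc
E2F1 holds 2 words within these 60 bases, which begin 33 and 20 bases before the start, and the other genes hold 1. E2F1, E2F2 and CDC25A share TTTGGCGC, while PCNA holds the reverse complement of TTTCCCGC. A match is a string of letters and not a measured binding site. CCNE2, CDK2, E2F8 and MCM4, which also had a called negative difference, had no promoter entry under their symbol and were not searched. MCM3 and MCM6 hold words further from the start than the 60 bases shown.

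**Figure D4:**
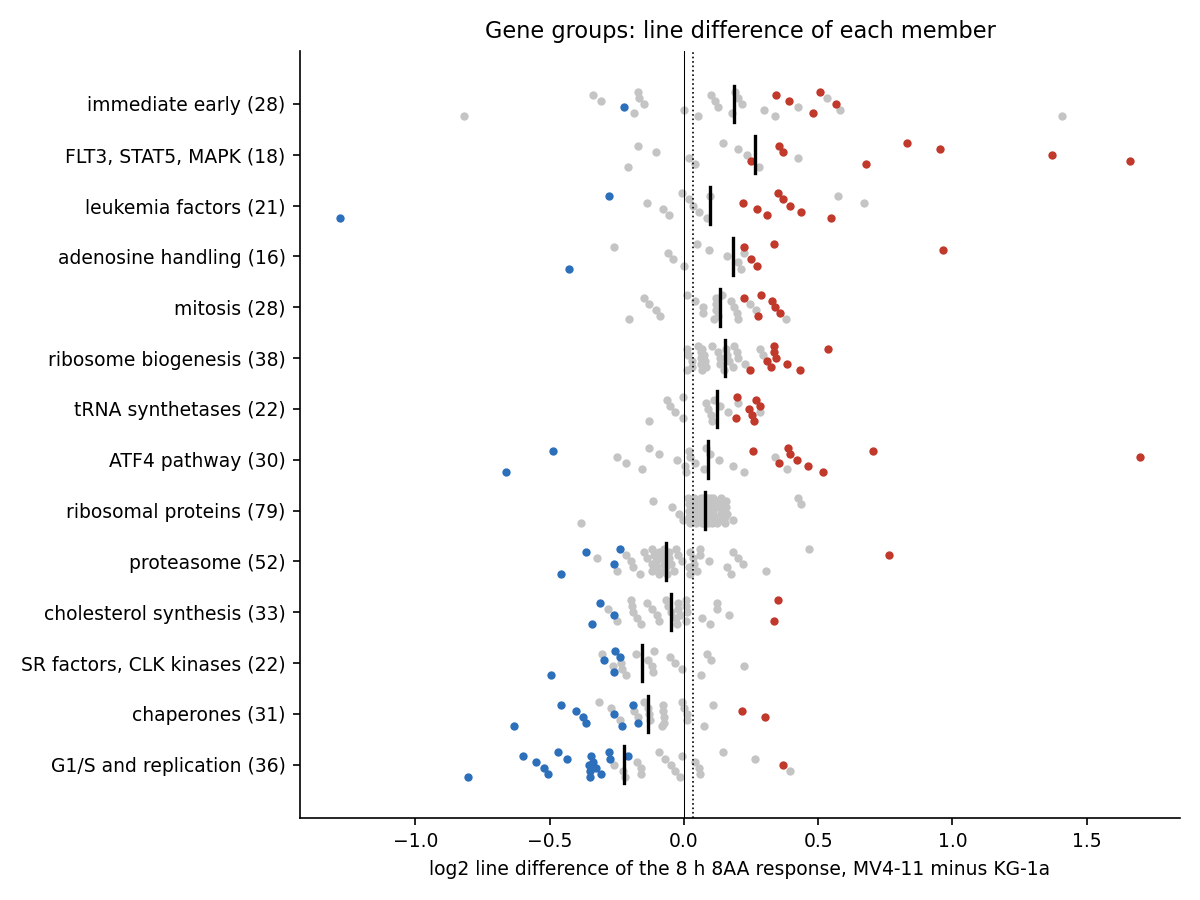
Log2 line difference of the 8 h 8AA response for each member of 14 gene groups, with the number of members expressed in both lines in brackets. Blue points are called negative, red points called positive and grey points not called, black bars are group medians, and the dotted line is the median of all genes. G1/S genes lie furthest to the left with a median of -0.22 and the FLT3, STAT5 and MAPK genes furthest to the right with 0.27.

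Genes that build ribosomes fell in both lines, and further in KG-1a where a difference was called. Of 38 ribosome biogenesis factors, 31 fell in MV4-11 and 34 in KG-1a, and 0 rose in either. Over all genes, 14.0% fell in MV4-11 and 20.5% in KG-1a. The line difference was called positive in 9 and negative in 0, against 9.27% and 4.52% of all genes, with a median of 0.15, and was above 0 in all 38, although in 27 to 38 across the alternatives. WDR43, a factor of small subunit assembly, went from 177 and 171 to 130 and 132 CPM in MV4-11 and from 179 and 185 to 104 and 98.8 CPM in KG-1a, a difference of 0.43 ± 0.059 (adjusted p = 3.6e-05). BYSL, RRS1 and PNO1 had differences of 0.54 ± 0.11, 0.39 ± 0.084 and 0.34 ± 0.082, and PNO1 lost its call without a filter on low counts (adjusted p = 0.0797). MYC, the transcription factor that drives this program, fell from 696 and 704 to 516 and 539 CPM in MV4-11 and from 509 and 486 to 274 and 254 CPM in KG-1a, a difference of 0.51 ± 0.079 (adjusted p = 0.000146). MXD4, a repressor that competes with MYC for MAX, rose in both lines and further in KG-1a (0.66 against 1.29). Of the 79 ribosomal protein genes, 0 had a called difference with edgeR and at most 1 under an alternative, and their median was 0.08.

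The ATF4 pathway, which answers amino acid shortage, was mixed. Of 30 genes 9 had a called positive and 2 a called negative difference, against 9.27% and 4.52% of all genes, and the median was 0.09. In MV4-11 15 and in KG-1a 19 of them fell, against 14.0% and 20.5% of all genes. ATF4 itself fell by 0.40 in MV4-11 and by 0.75 in KG-1a. DDIT4, an inhibitor of mTORC1, and ALDH1L2, a mitochondrial folate enzyme, had called positive differences of 0.70 ± 0.19 and 0.52 ± 0.13. DDIT4 lost its call without either untreated MV4-11 library or the second KG-1a library given 8AA, and ALDH1L2 without the second untreated KG-1a library or either KG-1a library given 8AA. CHAC1, which degrades glutathione, was low throughout, with 2.89 and 2.76 CPM untreated and 1.18 and 1.61 CPM treated in MV4-11 and 3.56 and 3.35 CPM and 0.561 and 0.497 CPM in KG-1a, and had the largest difference of the list (1.70 ± 0.34, adjusted p = 0.00189). SLC7A5, the large neutral amino acid transporter, fell from 650 and 664 to 300 and 330 CPM in MV4-11 and from 450 and 419 to 157 and 145 CPM in KG-1a, a difference of 0.46 ± 0.075 (adjusted p = 0.000245). SLC38A2 and TRIB3 went against these, with -0.66 ± 0.089 and -0.49 ± 0.14. Among the 22 cytosolic aminoacyl-tRNA synthetases, 7 were called positive and 0 negative, against the same shares of all genes, with a median of 0.12. The count was between 1 and 9 across the alternatives, with 2 to 4 without the first untreated or second 8AA library of MV4-11, either untreated KG-1a library or the second KG-1a library given 8AA. The threonine enzyme TARS (0.26 ± 0.057) lost its call under 1 of 19 alternatives, the glycine enzyme GARS (0.28 ± 0.074) under 3, the methionine enzyme MARS (0.26 ± 0.071) under 7 and the cysteine enzyme CARS (0.27 ± 0.082) under 12.

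Chaperones fell in both lines, in 25 of 31 genes in MV4-11 and in 22 in KG-1a, against 14.0% and 20.5% of all genes. The line difference was called negative in 9 and positive in 2, against 4.52% and 9.27% of all genes, with a median of -0.13, and the negative count was 4 to 14 across the alternatives. It was 4 or 5 without any 1 library other than the second untreated ones of both lines. The positive count was 0 without any 1 library other than the first MV4-11 library given 8AA. The largest difference was that of HSPA1B, an inducible HSP70 gene whose reads can be split with its near-identical copy HSPA1A (-0.63 ± 0.16, adjusted p = 0.0134), and it lost its call without the first untreated or second 8AA library of either line. HSPA8, the constitutive HSP70 chaperone, went from 3686 and 3801 to 2023 and 2145 CPM in MV4-11 and from 4617 and 4642 to 3370 and 3260 CPM in KG-1a, a difference of -0.36 ± 0.076 (adjusted p = 0.00268). HSPA4L (-0.62 against -0.16) fell further in MV4-11. DNAJB6 fell in MV4-11 (-0.29) and rose slightly in KG-1a (0.12). Of the 22 SR splicing factors and CLK kinases, 5 were called negative and 0 positive, against 4.52% and 9.27% of all genes, with a median of -0.16 and 2 to 12 negative calls across the alternatives, with 2 without the first untreated MV4-11 library and 3 without the second 8AA library of either line. SRSF5 led these, from 270 and 262 to 298 and 294 CPM in MV4-11 and from 234 and 243 to 377 and 373 CPM in KG-1a, a rise in both lines that was larger in KG-1a (difference -0.50 ± 0.053, adjusted p = 2.01e-06).

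Lists tied to the identity of the lines gave scattered calls. Of 21 myeloid and stem cell transcription factors, 8 were called positive and 2 negative, against 9.27% and 4.52% of all genes, with a median of 0.10. CEBPA, the driver of granulocyte fate, stood at 275 and 292 CPM and 266 and 291 CPM in MV4-11 and fell from 81.1 and 80.6 to 58.2 and 59.2 CPM in KG-1a, a difference of 0.44 ± 0.087 (adjusted p = 0.00186). LMO2, a bridging factor of stem cells, behaved alike (0.40 ± 0.083), and MYB rose in KG-1a with no call in MV4-11 (0.25 against -0.03). GATA2 had a difference of -1.28 ± 0.35 that rested on under 1 CPM in MV4-11, and it lost its call without the first untreated (-1.22, adjusted p = 0.101), the second untreated (-1.34, 0.063) or the second 8AA library of MV4-11 (-0.995, 0.227). The adenosine-handling list had 5 positive and 1 negative call among 16 genes, a median of 0.18, and between 1 and 4 positive calls across the alternatives, with 1 to 3 without any 1 library other than the first MV4-11 library given 8AA. AK1, an adenylate kinase, had the largest of these (0.97 ± 0.23, adjusted p = 0.0073) and lost its call without the second untreated MV4-11 library. NT5C3A, a pyrimidine nucleotidase, was the negative one (-0.43 ± 0.14) and lost its call under 7 of 19 alternatives. ADK, adenosine kinase, was at 104 and 106 CPM and 111 and 109 CPM in MV4-11 and went from 77.0 and 78.2 to 69.0 and 67.6 CPM in KG-1a, a difference of 0.25 ± 0.073 (adjusted p = 0.0273).

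Over all genes 9.27% were called positive and 4.52% negative. Among 28 immediate early genes 5 were called positive and 1 negative, with a median of 0.19, and 3 were positive without the second 8AA library of either line or the second untreated KG-1a library. Without a filter 5 of these genes were called positive and 4 negative. JUND stood at 204 and 203 CPM and 186 and 207 CPM in MV4-11. It fell from 68.4 and 60.9 to 42.4 and 41.9 CPM in KG-1a. The line difference of JUND was 0.57 ± 0.11 (adjusted p = 0.00144). Of 23 p53 targets 3 were called positive and 0 negative. They were PLK3 (0.81 ± 0.16), AEN (0.41 ± 0.11) and XPC (0.35 ± 0.072), and AEN lost its call without the first untreated (0.36, adjusted p = 0.064) or second 8AA library of MV4-11 (0.33, 0.0801) or the second 8AA library of KG-1a (0.40, 0.0546). The NF-kappaB list had 3 positive calls, led by BCL3, and 1 negative, TNFAIP3, among 18 genes. Its counts were 3 positive and 4 negative without a filter, and 3 and 3 in the 12 libraries of 8 h. Interferon-stimulated genes had 4 positive calls of 18, but 1 without the first untreated MV4-11 library, the second MV4-11 library given 8AA or the first untreated KG-1a library, 2 without any other KG-1a library, and 1 or 2 under each other scaling and filter. RSAD2 led these and rose from 0.876 and 0.903 to 2.82 and 1.88 CPM in MV4-11 and went from 251 and 261 to 287 and 281 CPM in KG-1a. In the BCL2 family 3 of 14 were positive and 1 negative. The positive count was 1 without either untreated MV4-11 library, the first MV4-11 library given 8AA or either KG-1a library given 8AA, and 1 or 2 under each other scaling and filter. The negative one was the death activator BCL2L11, which rose in KG-1a (0.36) and had -0.09 in MV4-11. Other lists held shares nearer to those of all genes, or few calls. Of 193 chromosome 19 zinc finger genes 13 were positive and 4 negative, with 7 or 8 positive without the first MV4-11 library given 8AA, the second untreated KG-1a library or the second KG-1a library given 8AA, and 2 negative without the second untreated MV4-11 library or either KG-1a library given 8AA. Of 70 long intergenic RNAs 9 were positive and 1 negative, with 5 positive without the second 8AA library of either line. Of 177 antisense RNAs 18 were positive and 6 negative, with 11 positive without the second MV4-11 library given 8AA and 3 negative without that library, the first untreated KG-1a library or the second KG-1a library given 8AA. Of 32 glycolysis and hypoxia genes 5 were positive and 1 negative, with 3 positive without the first untreated or second 8AA library of MV4-11 or the second untreated or second 8AA library of KG-1a. The lists of cholesterol synthesis, the endoplasmic reticulum response, methionine and polyamine enzymes, snoRNA hosts, the MYC network, elongation control, proteasome genes and histone genes held between 0 and 4 calls in either direction, and in each of them leaving out 1 library changed a count by over 1.5 times.

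Of the further named members of these lists, the following kept their call under all 19 alternatives. Among NF-kappaB targets, the ligand TNFSF14 had a difference of 0.67 ± 0.12. In the cholesterol list SQLE, squalene epoxidase, had -0.31 ± 0.077. In the endoplasmic reticulum list DERL3 had -0.66 ± 0.14 and XBP1, a transcription factor of the unfolded protein response, 0.41 ± 0.065. In the glycolysis and hypoxia list PFKFB2, which makes an activator of glycolysis, had 0.90 ± 0.18 and VEGFA, an angiogenic ligand, 0.83 ± 0.15. GCLC, the catalytic subunit of glutamate-cysteine ligase, had 0.41 ± 0.095. The proteasome list was drawn by symbol, and PSMC3IP, a factor of meiotic recombination with -0.46 ± 0.11, is not a proteasome subunit.

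The same contrast at 24 h came from 8 other libraries of the series, and so measured the line difference again in libraries that the 8 h contrast did not use. At 24 h the difference was positive for 1903 genes (17.2%) and negative for 1149 (10.4%). Of the 1028 genes positive at 8 h, 463 (45.0%) were positive, 45 negative and 520 not called at 24 h. Of the 502 negative ones, 216 (43.0%) were negative, 27 positive and 259 not called. In turn 24.3% of the genes positive at 24 h and 18.8% of those negative were already called in that direction at 8 h. The change of the line difference between the times, tested in the same fit, was called in 1222 genes (11.0%). It was called for all 72 genes that turned, and for 147 positive and 61 negative of the 779 called at 8 h alone. The 72 were picked by opposite calls in the same fit, so their called change was nearly fixed in advance. The test also reuses the 8 h values by which the 779 were picked, so the 147 and 61 are no separate support. For the other 571 a loss by 24 h was not shown. The share of positive calls at 24 h moved with the scaling, from 62.4% to 46.3% with library size only and 43.3% without a filter, and to 1283 of 3123 without the second 8AA library of KG-1a at 24 h.

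Single genes kept or lost their difference. SEL1L3 (1.496 at 8 h and 1.48 at 24 h), RHOH (-1.13 and -1.14) and LOC646214 (-1.82 and -1.84) had about the same value at both times. ZNF469 shrank from 2.53 to 1.27 (change of 1.25 ± 0.24, adjusted p = 0.00151), DUSP6 from 1.66 to 0.64 (adjusted p = 0.000842) and BCL3 from 2.02 to 0.26 (adjusted p = 0.000891), which was not called at 24 h. TNFAIP3 grew in the negative direction from -1.12 to -1.84 (adjusted p = 0.00505). Within G1/S genes E2F1 (-0.01), CDC25A (-0.01) and RRM2 (-0.11) were not called at 24 h, and their change between the times was called (adjusted p = 0.00969, 0.00236 and 0.000524), whereas E2F2 (-0.62), E2F7 (-0.49) and E2F8 (-0.66) were negative at both times. ZNF469, DUSP6, BCL3, E2F1, CDC25A and RRM2 were named for large 8 h differences, and the test of the change reuses those values. Some shrinking by 24 h is expected from that choice alone. MAT2A had no called difference at 8 h and 0.45 at 24 h, with an adjusted p of 0.00148 for the change. CCNG2, shared at 8 h, had -1.03 at 24 h.

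**Figure D5:**
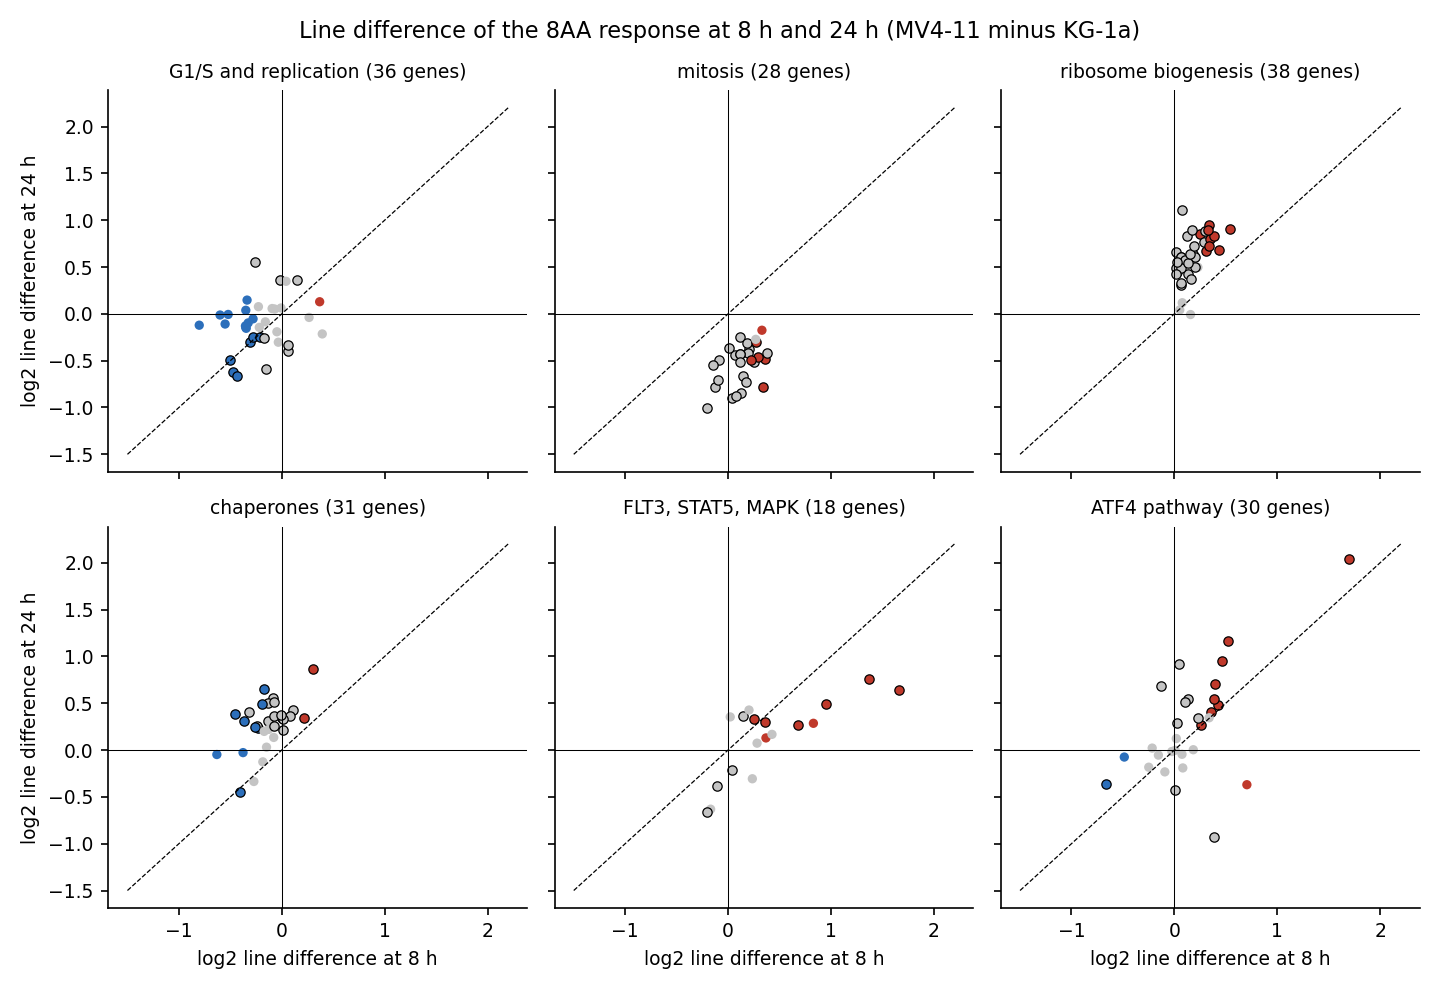
Log2 line difference of the 8AA response at 8 h (horizontal axis) and at 24 h (vertical axis) for the members of 6 gene groups, with the colour giving the call at 8 h (red positive, blue negative, grey not called) and a black rim a call at 24 h. The dashed line marks equal values. All 28 mitosis genes lie below 0 at 24 h, with a median of -0.48, and ribosome biogenesis genes have a median of 0.61 at 24 h against 0.15 at 8 h.

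Several groups changed between the times. Over all genes, 9.27% were positive and 4.52% negative at 8 h, 17.2% and 10.4% at 24 h, and the change was called in 11.0%. Of 28 mitosis genes, 6 had a called positive difference at 8 h (median 0.14) and 0 at 24 h, when 26 were negative (median -0.48), and the change was called in 27. The 8 h count was 3 without the first untreated KG-1a library and 2 without the second KG-1a library given 8AA. Without a filter 2 mitosis genes were positive and 1 negative at 8 h (median 0.06), and in the 12 libraries of 8 h 5 and 1. NEK2, a centrosome kinase, went from 0.34 ± 0.080 at 8 h to -0.78 ± 0.081 at 24 h. The change had an adjusted p of 1.61e-06, and the 8 h call of NEK2 was lost without a filter (adjusted p = 0.116). AURKB, the kinase of the chromosomal passenger complex, went from 0.36 ± 0.10 to -0.48 ± 0.10, and its 8 h call was lost without a filter, without the second untreated or first 8AA library of MV4-11, and without the first untreated or second 8AA library of KG-1a. TOP2A, the topoisomerase of chromosome separation, went from 0.22 to -0.49. Ribosome biogenesis genes went from 9 of 38 positive (median 0.15) to 34 (median 0.61), and the count at 24 h was 34 under each other scaling and filter. Of 31 chaperones, 22 were positive at 24 h (median 0.32), and 6 of the 11 called at 8 h had turned, among them HSPA8 (from -0.36 to 0.31, adjusted p of the change 0.000252) and HSPD1 (from -0.17 to 0.65). tRNA synthetases went from 7 to 17 positive of 22. Of the 18 FLT3, STAT5 and MAPK genes, 7 were positive and 3 negative at 24 h.

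The 8 h libraries given 8CA, the analog with a chlorine atom in place of that additional amino group, were measured against the same untreated libraries. Their values are thus set side by side only. DUSP6 had 0.17 in MV4-11 and 0.00 in KG-1a with 8CA, where 8AA gave -0.44 and -2.11. ZNF469 had 0.06 and -0.28 with 8CA. The line difference with 8CA was called for PAQR8 (0.60, adjusted p = 0.00229) and DYRK1B (0.83, adjusted p = 0.0219), positive as with 8AA. Among the largest positive 8AA differences it was not called for BCL3 (0.93), SEL1L3 (0.46), RGS19 (0.40), ZNF469 (0.34), NAV1 (0.30) and DUSP6 (0.17). CHAC1 had -0.02 in MV4-11 and 3.24 in KG-1a with 8CA, against -0.99 and -2.69 with 8AA. SLC38A2 had -0.07 and 0.61 with 8CA. CCNE2 had -0.22 and -0.06, and TNFAIP3 0.14 and 0.23. MAT2A fell with 8CA in both lines, by 0.35 in MV4-11 and 0.24 in KG-1a.

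The median gene span was 33.4 kb for positive, 25.1 kb for negative and 27.4 kb for genes with no called difference, and the median exon length 4.20 kb, 3.85 kb and 3.43 kb. In the untreated 24 h libraries, which the 8 h contrast did not use, the log2 level of MV4-11 over KG-1a had a median of -0.02 for genes with a positive and 0.04 for genes with a negative difference. The filter kept 358 genes through only 1 treatment group of a line. Of these 39 were called, against 1530 of all 11095 genes expressed in both lines (13.8%). These medians are descriptions and were not tested.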

How the data were processed

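The 24 libraries hold RNA of MV4-11 and KG-1a cells, with 8 libraries in the contrast and total counts of 18754237 to 24181318 each. The authors deposited raw counts per gene, not normalized, as whole reads. The submitters' processing notes name Trimmomatic, STAR 2.6.0, HTSeq 0.11.1 and edgeR, and the builds hg19 and hg38 without a role. Gene positions in the table reach 249213345 on chromosome 1, beyond the last gene of GENCODE 29 on GRCh38 (248937043), so they are given as hg19. Strand use is not stated, so reads of antisense, overlapping and duplicated genes may be shared.

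From the counts, genes were filtered with filterByExpr (minimum count 10), scaled by TMM, and tested with the quasi-likelihood test of edgeR 4.0.16 in R 4.3.3, over 24 libraries with 1 coefficient per group and Benjamini-Hochberg adjustment over all 14055 genes. Calls have an adjusted p below 0.05. CPM are TMM-scaled, ± is the standard error, and intervals are 95%. Counting limits of PCR reads and the spread of 2 libraries set the precision. The members of the lists and the comparison were chosen with earlier results of these data known. Genes were named by rule: the 8 largest positive and 8 most negative called differences with at least 1 mean log2 CPM in both lines and replicate responses that do not overlap, the 4 strongest opposite calls each way, 3 shared rises and 3 shared falls with a 95% interval within 0.5 of 0, MAT2A and METTL16, and up to 4 called members per list; further list members were chosen after their values were seen. Alternatives were DESeq2 1.42.0 (size factors and Wald test), library size, upper-quartile scaling, other filters and sets of libraries, a replicate block, a fold threshold, another adjustment and left-out libraries. The test was checked on simulated data.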

Additional observations from a re-analysis of the deposited data

Results flagged for a closer look

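A difference between the lines under the same 8AA contrast, tested as an interaction, picked out 1530 genes. Among the named ones the positive differences were 2.53 for ZNF469, 2.02 for BCL3, 1.86 for DYRK1B, 1.81 for NAV1, 1.66 for DUSP6, 1.53 for PAQR8, 1.496 for SEL1L3, 1.47 for RGS19, 1.46 for SLC27A3 and 1.35 for LINC00467. The negative ones were -1.82 for LOC646214, -1.40 for ZNF790-AS1, -1.15 for SPATA33, -1.13 for RHOH, -1.12 for TNFAIP3, -1.06 for RNPC3, -1.03 for TRIB1, -0.93 for MORF4L2-AS1, -0.92 for XRCC2, -0.66 for SLC38A2 and -0.80 for CCNE2. Groups of 2 libraries are too small to test a single library as apart from its group.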

How the results depend on the processing

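The count of genes with a line difference at 8 h (1530) lay between 955 and 1274 when 1 of the 8 libraries was left out, and fell to 135 with a log2 threshold of 1. That threshold also left 110 genes in MV4-11 and 175 in KG-1a. With a library left out, the counts lay between 2294 and 3348 in MV4-11, between 2815 and 4095 in KG-1a, 2380 and 3409 for the line difference at 24 h, and 886 and 1680 for its change. The 24 h libraries were left out in turn after the data had been seen. With a replicate block for the letter, 1464 genes were called, and 1851 with the letter nested in line and time. Same-letter deviations correlated at 0.43 in MV4-11 and 0.221 in KG-1a. The labels do not say whether libraries with the same letter share a culture or a batch, and the main fit ignores such a pairing. The blocked fits moved the counts over all genes by less than 1.5 times, but with the letter nested in line and time 5 instead of 3 p53 targets were called positive and 45 instead of 10 ribosomal protein genes rose in MV4-11, and with the letter over all libraries 0 instead of 2 chaperones. The share of positive differences moved from 67.2% to between 41.8% and 71.4%, or 88.1% with the log2 threshold, and the share of rises in KG-1a from 43.9% to at most 57.5%. For the change between the times it was 45.0%, and 57.5% with upper-quartile scaling. Genes called both here and under an alternative had the same direction, for example 1358 of 1358 with library size only. Genes called in refits of largely the same libraries could hardly change direction, so this is no separate support. Of 114 named called genes, 54 lost their call under at least 1 alternative, and 0 of them turned. Most were named because they were called here, so a turn was unlikely from the start. Further list members in the text, such as PIM1, E2F2 and the MCM genes, were not followed singly. The uncalled differences that changed sign were CCNG2 (0.143 without the first untreated MV4-11 library and 0.0351 without the second 8AA library of MV4-11, with left-out libraries giving -0.206 to 0.143) and MAT2A (-0.0304 without a filter, -0.00603 with at least 10 counts in every library and -0.0148 in the 12 libraries of 8 h). With 2 libraries per group, the spread between libraries limits which small differences can be called.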
